A study of Mus musculus with 18 samples.

Results

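The genes described here are Cdx1, Cdx2, Cdx4, Nkx1-2, Tbx6, Nr6a1 and Gdf11, 7 of the 27179 genes with read counts in RNA-seq of mouse embryonic stem cells (ESCs) driven towards motor neurons (MNs). They were chosen by name, as CDX and trunk axial timing genes, and were matched to the count tables by Entrez identifier. The study asked how single Hox genes change the fate of cells on the way to MNs, and RNA was sequenced from 18 libraries, 3 in each of 6 groups. All groups were differentiated with 1 µM retinoic acid (RA) and 0.5 µM SAG, an agonist of Hedgehog signaling. Day 2 progenitors came from the iCre line (Ainv15(iCre)) and had no doxycycline (Dox). Control neurons were the iHoxc6 line collected on day 4 without Dox, so they carry the uninduced Hoxc6 transgene. The iHoxc6, iHoxc8, iHoxc9 and iHoxc10 groups received 3 µg/ml Dox for the 48 h from day 2 to their collection on day 4, which induces the Flag-tagged Hox transgene of that name. The lines are isogenic and each Hox gene was induced in 1 line, so the line and its Hox gene cannot be told apart.

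Cdx1, Cdx2 and Cdx4 encode the 3 mouse caudal-type homeodomain factors, which act in the posterior embryo upstream of central Hox genes and are switched on there by Wnt, FGF and retinoid signals. Nkx1-2 marks the caudal epiblast and the preneural tube, where the progenitors of the spinal cord reside, and Tbx6 turns such progenitors towards paraxial mesoderm. Nr6a1, an orphan nuclear receptor also called GCNF, is active during trunk formation, and Gdf11, a secreted TGF-β family ligand, acts at the trunk to tail transition, when posterior Hox genes come on.

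Of the 7 genes, Nr6a1 and Gdf11 were well expressed in every group, Nkx1-2 and Tbx6 were low, and the 3 Cdx genes gave next to no reads. Total counts ranged from 24498630 to 33168533 per library, so that 3 counts correspond to 0.0883 to 0.1215 CPM (read counts relative to the library's total, normalized by edgeR's TMM method). That limit and those below cover only the error of counting. The libraries came from 4 sequencing runs: control shared a run with iHoxc6, iHoxc9 shared a run with iHoxc10, and day 2 progenitors and iHoxc8 each had their own. In every other comparison the run cannot be told apart from the group. The third day 2 library (Pearson's r of log2(CPM + 1) with the other two, 0.9643 and 0.9709, across genes, which are not independent replicates) and the second control library (0.981 and 0.9716) stood furthest from their replicates. All 8 neural progenitor markers had a mean of at least 1 CPM in day 2 progenitors and in each day 4 group. Of the 10 MN and neuron markers, 9 did in day 2 progenitors and all 10 in each day 4 group. This cut does not separate the stages. The mean summed level of the progenitor markers was 576 CPM in day 2 progenitors and 395 to 573 CPM in the day 4 groups. This sum does not show the single genes. From day 2 progenitors to control, 4 of the 8 fell and 0 rose by edgeR at an adjusted p under 0.01. In the iHox lines 4 to 6 fell and 0 to 1 rose. Of all tested genes, 21.2% fell and 21.2% rose in control. In the iHox lines 22.3% to 26.1% fell and 22.3% to 24.1% rose. In bulk RNA, fewer cells that express a gene and less RNA per cell cannot be told apart.

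Cdx transcripts were almost undetected at both stages. Cdx1 (chr18:61018862-61036199, GRCm38) had 2, 0 and 4 counts in the 3 day 2 libraries and 0 counts in all 15 day 4 libraries. Over the 435723747 counts of the day 4 libraries, a count of 0 allows a level of up to 0.00689 CPM. Cdx2 (chr5:147300900-147307249) had 3 counts in the second day 2 library, 1 count in the second iHoxc8 library and 0 counts in the other libraries. Cdx4 (chrX:103321398-103330224) had 0 counts in day 2 progenitors, 1 count in the third control library, 1 count each in the first and the third iHoxc8 library and 0 counts in the others. No Cdx gene exceeded 4 counts in any library. Cdx2 and Cdx4 entered the fit across all genes with these counts, and neither passed in any of the 10 comparisons by edgeR's quasi-likelihood test at an adjusted p under 0.01. Each had 0 comparisons with an unadjusted p under 0.05 and 0 calls by DESeq2's Wald test. Cdx1 was not tested, because it had no count in an iHox library. Cdx2 is also a trophoblast gene, and the summed level of 8 trophoblast markers was 3.67 to 8.81 CPM in day 2 progenitors and 0.245 to 1.09 CPM in the day 4 libraries. The part of such cells in the few Cdx2 counts was not tested.

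Of the 8 central Hox genes, paralog groups 6 to 8, 3 had a mean of at least 1 CPM in day 2 progenitors and 5 in control neurons, and Hoxb6, Hoxb7 and Hoxb8 were the highest of them in both groups. In day 2 progenitors Cdx1, Cdx2 and Cdx4 together had 9 counts against 8213 for Hoxb6, Hoxb7 and Hoxb8. In control neurons the Cdx genes had 1 count against 32326, in iHoxc6 0 against 26208, in iHoxc8 3 against 25826, in iHoxc9 0 against 7085, and in iHoxc10 0 against 29217. These 3 Hoxb genes were therefore counted in all 6 groups while Cdx transcripts were at or near 0. The other 5 central genes were low in day 2 progenitors, with 15 to 38 counts each, and Hoxc8 had 0 counts in iHoxc6. From day 2 progenitors to control neurons, 6 of the 8 central Hox genes rose and none fell, with a median log2 fold change of 2.11 against 0.00 over all genes tested, of which 21.2% rose and 21.2% fell. Hoxb8 had 40.0, 51.4 and 34.6 CPM in the day 2 libraries and 183, 188 and 161 CPM in the control libraries, without overlap (log2 fold change 2.08, SE 0.16, adjusted p = 2.48e-10 by edgeR). Hoxb7 rose by a log2 fold change of 2.29 (SE 0.19), and Hoxb6, whose reads are uncertain because its span overlaps Hoxb5os, rose by 2.09 (SE 0.20). Hoxc6 (3.54), Hoxa6 (2.79) and Hoxa7 (2.12), all at or below 3.18 CPM in control, also rose, while Hoxc8 and Hoxd8 did not pass. Control carries the uninduced Hoxc6 transgene, and the day 2 progenitors came from another line, iCre. The part of that transgene in the Hoxc6 reads of control was not tested. Hoxa6 and Hoxa7 overlap other annotated transcripts of the HoxA cluster, so their reads are uncertain too.

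**Figure D1:**
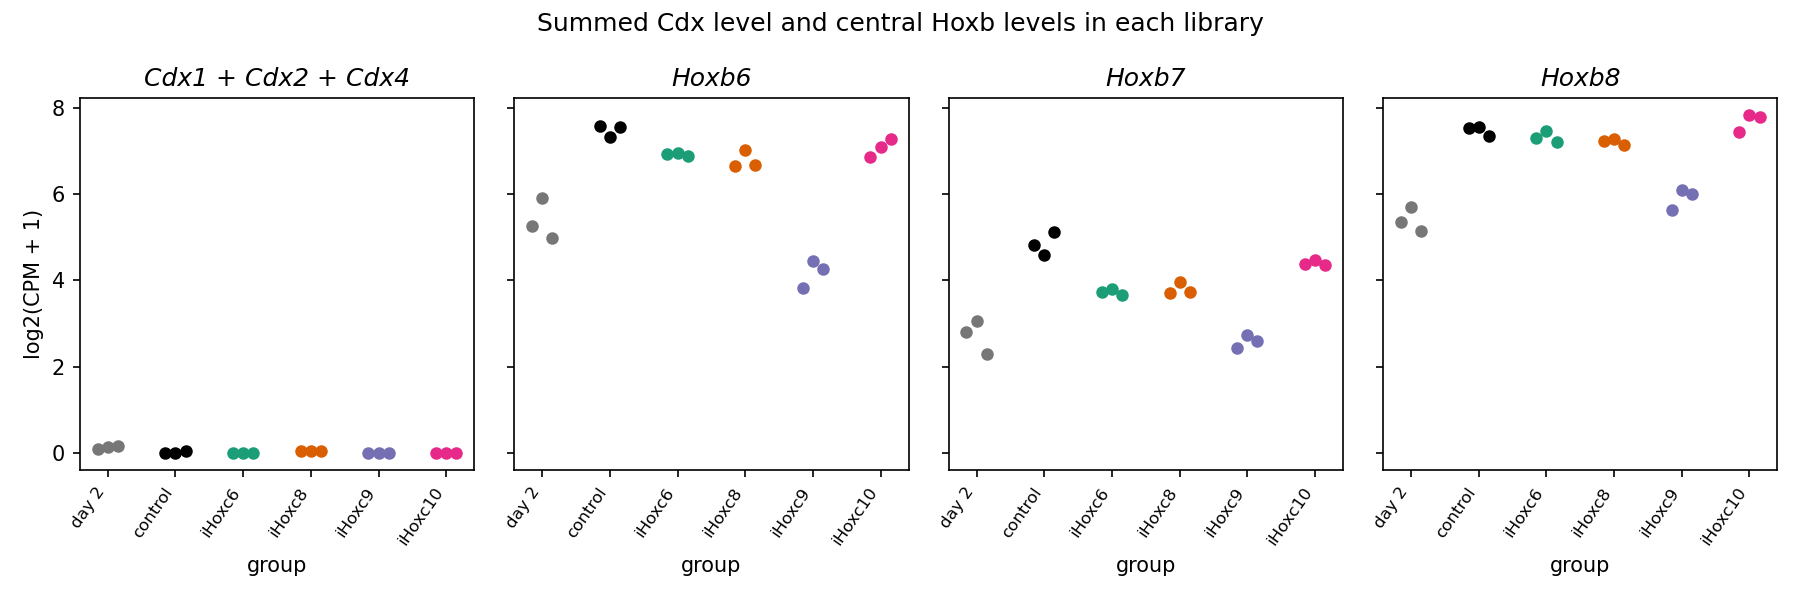
Level of Cdx1, Cdx2 and Cdx4 summed, and of Hoxb6, Hoxb7 and Hoxb8, as log2(CPM + 1) on the y axis in each of 18 libraries (1 point each) by group on the x axis. The Cdx points lie at or just above 0 in all 6 groups, while Hoxb8 is lowest in day 2 progenitors (mean 42.0 CPM) and iHoxc9 neurons (60.0 CPM) and highest in iHoxc10 neurons (206 CPM).

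In the induced lines, the central Hox genes differed from control while the Cdx genes stayed at 0 to 3 counts per group. With the line's own transgene left out, the summed level of central Hox genes was 390 ± 16.0 CPM in control neurons and 423 ± 43.6 CPM in iHoxc10, 294 ± 18.6 CPM in the iHoxc6 line and 274 ± 23.6 CPM in the iHoxc8 line (SD, n = 3 each). It was 88.4 ± 14.8 CPM in iHoxc9 and 91.2 ± 25.0 CPM in day 2 progenitors. The iHoxc9 libraries lay below those of the other day 4 groups and overlapped those of day 2 progenitors. Against control, 0.363% of all tested genes rose and 0.224% fell in iHoxc6, and 1.03% and 1.09% in iHoxc8. The shares were 6.95% and 7.13% in iHoxc9, and 6.67% and 7.75% in iHoxc10. In iHoxc9 against control, 3 of 8 central genes fell (Hoxb6 by 3.36, Hoxb7 by 2.47 and Hoxb8 by 1.56 on the log2 scale) and Hoxd8 rose by 1.79. In iHoxc10 against control, none fell and 3 rose, namely Hoxc6 (3.88), Hoxd8 (3.28) and Hoxa6 (2.95). In iHoxc6 only Hoxb7 changed among 7, falling by 1.19, and in iHoxc8 Hoxa7, Hoxc6 and Hoxb7 fell, by 2.92, 1.47 and 1.11. Hoxc6 was kept in the control level here, though control carries the uninduced Hoxc6 transgene. The part of that transgene in the Hoxc6 reads of control was not tested. The fall of Hoxc6 in iHoxc8 failed the test in the fit of the groups compared alone and without the first control library, the second iHoxc8 library or the third iHoxc8 library, and that of Hoxb7 in iHoxc8 without the third control library or the first iHoxc8 library.

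Of the 22 genes of the caudal progenitor list, 9 to 11 had a mean of at least 1 CPM in each group. T (Brachyury), which marks the primitive streak and its progenitors, had 8 counts in day 2 progenitors and 3 in the 15 day 4 libraries together. Fgf8, a caudal growth factor, had 3 counts in day 2 progenitors and 2 in iHoxc9 neurons. Sox2, which caudal progenitors share with the whole neural tube, was at 72.8 ± 4.88 CPM in day 2 progenitors and 39.7 ± 5.40 CPM in control neurons (SD, n = 3 each). Cyp26a1, which degrades retinoic acid and is itself induced by it, had the largest change from day 2 progenitors to control among the list genes with a mean of at least 1 CPM in a group compared. It had 101, 100 and 129 CPM in day 2 progenitors, 7.42, 4.16 and 6.03 CPM in control, and 111, 148 and 134 CPM in iHoxc9 neurons. Its libraries in iHoxc9 lay in the range of day 2 progenitors or above it, and its log2 fold change in iHoxc9 against control was 4.48 (SE 0.23, adjusted p = 8.87e-12 by edgeR). In iHoxc10 it was 20.5, 41.4 and 29.0 CPM, also above control (2.36).

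The sequences upstream of the 3 genes whose levels changed are shown because they set the genes apart in base composition and in the letters TTTAT, the core of the motif that CDX proteins bind. The paper also reports TTTAT as the posterior Hox motif where HOXC9 and HOXC10 bind, so the letters do not tell these factors apart. Each line holds the 250 bases before the annotated start from RefSeq (GRCm38.p6) at the outer end of the gene. Any other annotated start was not used. The bases are on the strand of the gene, which is the minus strand for all 3. Each match to TTTAT or its reverse complement ATAAA is in capitals. The stretches are chr7:132599638-132599887 for Nkx1-2, chr2:38926462-38926711 for Nr6a1 and chr10:128891719-128891968 for Gdf11.
Nkx1-2: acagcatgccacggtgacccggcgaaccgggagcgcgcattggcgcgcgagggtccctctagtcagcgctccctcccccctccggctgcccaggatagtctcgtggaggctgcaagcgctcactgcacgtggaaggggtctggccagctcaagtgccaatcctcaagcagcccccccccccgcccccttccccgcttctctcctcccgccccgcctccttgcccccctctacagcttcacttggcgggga
Nr6a1: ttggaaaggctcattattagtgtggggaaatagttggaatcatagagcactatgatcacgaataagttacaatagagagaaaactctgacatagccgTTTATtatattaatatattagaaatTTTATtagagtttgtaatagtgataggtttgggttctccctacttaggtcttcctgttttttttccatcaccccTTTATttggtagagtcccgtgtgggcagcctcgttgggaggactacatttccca
Gdf11: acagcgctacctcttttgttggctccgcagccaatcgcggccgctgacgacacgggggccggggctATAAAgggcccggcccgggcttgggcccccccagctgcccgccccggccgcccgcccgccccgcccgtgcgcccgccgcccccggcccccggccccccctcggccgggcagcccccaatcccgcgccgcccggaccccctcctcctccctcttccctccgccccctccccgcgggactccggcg
The G and C share was 69.6% for Nkx1-2, 37.6% for Nr6a1 and 81.2% for Gdf11. The Nr6a1 stretch held 3 matches, which began 153, 128 and 54 bases before the start. The match of Gdf11, 184 bases before the start, lay within the letters TATAAA, the TATA box motif, and Nkx1-2 had none. On either strand TTTAT occurs in 37.3% of the 32851 promoters of this length in the table. AGGTCA, the letters at the core of sites bound by NR6A1 and other nuclear receptors, occurs on either strand in 14.0% of them and in none of these 3. A match describes letters only.

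Nkx1-2 (chr7:132596239-132599637), the preneural tube marker, was low in all groups and highest in iHoxc6 neurons. It had 4.15, 2.96 and 4.31 CPM in iHoxc6, 2.48, 1.94 and 3.38 CPM in iHoxc8, and 2.31, 1.18 and 1.54 CPM in iHoxc10. It had 0.743, 0.853 and 0.955 CPM in iHoxc9, 0.482, 0.732 and 0.711 CPM in control, and 1.21, 1.53 and 0.312 CPM in day 2 progenitors. The iHoxc6 and iHoxc8 libraries all lay above those of control, iHoxc9 and day 2 progenitors. These levels rest on 10 to 124 counts per library. Nkx1-2 overlaps the annotated antisense gene Gm16764, and the strand setting of the counting is not given in the sources used here, so its reads are uncertain.

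Against control, Nkx1-2 had a log2 fold change of 2.57 (SE 0.39, adjusted p = 0.000631 by edgeR) in iHoxc6, from a mean of 0.642 ± 0.139 to 3.80 ± 0.738 CPM (SD, n = 3 each). These libraries share a line and a run, and differ in Dox and the Hoxc6 it induces. It was the only one of 6 tested genes that rose in iHoxc6, where 0.363% of all tested genes rose and 0.224% fell. In iHoxc8, where 1.03% of all genes rose and 1.09% fell, it was again the only one that rose, with a log2 fold change of 2.02 (SE 0.39, adjusted p = 0.0038 by edgeR). That call was lost without the first control library (adjusted p = 0.0188 by edgeR), the third control library (0.0245), the first iHoxc8 library (0.0143) or the third iHoxc8 library (0.0273), with log2 fold changes from 1.75 to 2.09 in these fits. In iHoxc10 the value was 1.39 (SE 0.40) and did not pass (adjusted p = 0.0137 by edgeR), though it did by DESeq2's Wald test (adjusted p = 0.00402) and in an edgeR fit of these groups alone (adjusted p = 0.0093). In iHoxc9 it was 0.42 (SE 0.43, adjusted p = 0.514 by edgeR).

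**Figure D2:**
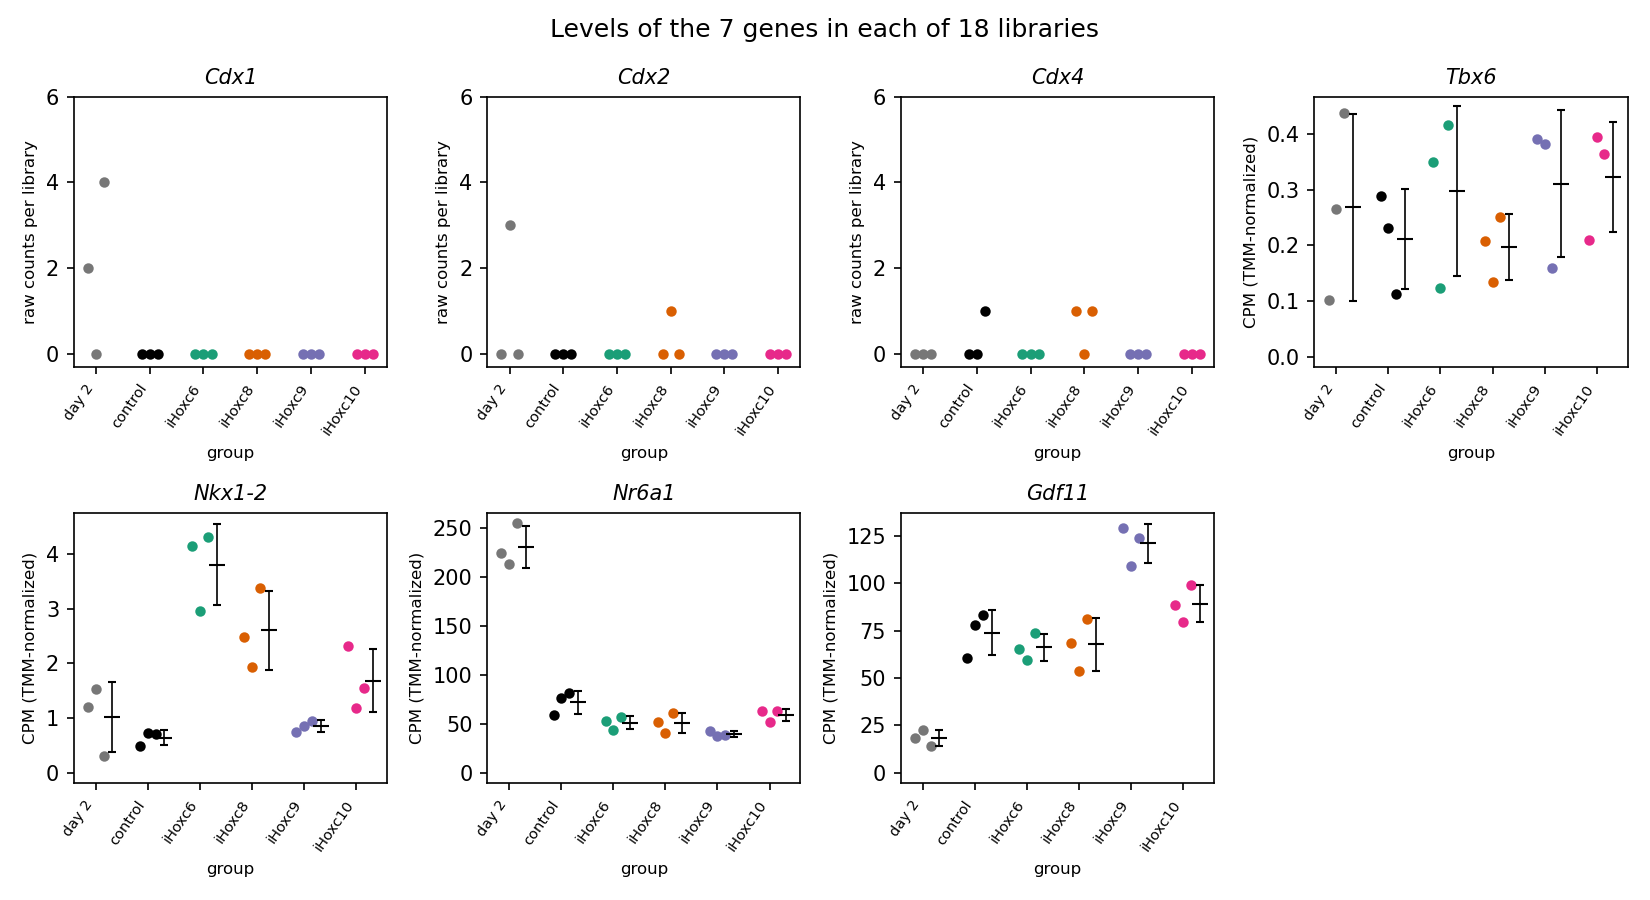
Levels of the 7 genes on the y axis in each of 18 libraries (points) by group on the x axis, as raw counts for the Cdx genes and as TMM-normalized CPM with the mean and SD of 3 libraries (bars) for the others. Nkx1-2 is highest in iHoxc6, Nr6a1 is highest in day 2 progenitors (213 to 255 CPM), and Gdf11 is lowest there (13.9 to 22.3 CPM) and highest in iHoxc9 (109 to 129 CPM).

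Against day 2 progenitors, Nkx1-2 rose in iHoxc6 (log2 fold change 1.90, SE 0.36, adjusted p = 0.000102 by edgeR) and in iHoxc8 (1.36, SE 0.37, adjusted p = 0.00307 by edgeR). The other values were 0.73 (SE 0.38) in iHoxc10, -0.25 (SE 0.40) in iHoxc9 and -0.67 (SE 0.42) in control, none of which passed. The third day 2 library had 0.312 CPM of Nkx1-2, the lowest of all 18. The summed level of 10 neuron markers was 291 CPM in that library against 406 and 587 CPM in the other day 2 libraries, with 9 of the 10 lowest there. The sum of 6 pluripotency markers was 7.86 CPM against 3.76 and 2.82 CPM, with 5 of the 6 highest there, and that of 15 paraxial mesoderm genes was 114 CPM against 95.3 and 115 CPM, with 7 highest and 4 lowest there. The part of such cells in the Nkx1-2 level was not tested. Without that library the rise in iHoxc6 still passed (1.47, adjusted p = 0.000149 by edgeR), the fall in control passed (log2 fold change -1.10, adjusted p = 0.00758 by edgeR) and the rise in iHoxc8 did not (0.92, adjusted p = 0.0105 by edgeR). The rise in iHoxc8 also failed without the third iHoxc8 library (1.11, adjusted p = 0.0213) and in the fit of these groups alone (1.32, adjusted p = 0.0297 by edgeR), and in iHoxc9 the sign of the difference changed without the second day 2 library (0.12).

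In the order of mean levels, iHoxc6 (3.80 CPM) was followed by iHoxc8 (2.60), iHoxc10 (1.68), day 2 progenitors (1.02), iHoxc9 (0.851) and control (0.642), and no neighbors in this order differed in the test. Further apart, iHoxc6 exceeded iHoxc9 by a log2 fold change of 2.15 (SE 0.37, adjusted p = 0.000241 by edgeR) and iHoxc8 exceeded it by 1.61 (SE 0.38, adjusted p = 0.00618 by edgeR). The 3 genes most like Nkx1-2 over the 15 day 4 libraries by Pearson's r of log2(CPM + 1) were Tmem158 (r = 0.893), Synpo (0.862) and Ripor2 (0.848), among 13137 genes with a mean of at least 1 CPM in a day 4 group. Over all 18 libraries they were Pcdh20 (0.810), Ripor2 (0.781) and Gm13884 (0.775), among 13713 genes. These points share groups, lines and runs, and the r values describe them without a test.

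Tbx6 (chr7:126781483-126785548), the T-box factor of paraxial mesoderm, was near the detection limit in every group. It had 3, 8 and 14 counts in the day 2 libraries and 3 to 13 counts in the 15 day 4 libraries, which is 141 counts in all 18. Group means ran from 0.197 ± 0.059 CPM in iHoxc8 to 0.323 ± 0.0988 CPM in iHoxc10 (SD, n = 3 each), the groups overlapped, and 0 of 10 comparisons passed. The smallest unadjusted p of Tbx6 in these comparisons was 0.313 by edgeR, and DESeq2's Wald test made 0 calls where it gave an adjusted p. Of 13 tested genes of the paraxial mesoderm list, with Tbx6 among them, 1 rose and 3 fell from day 2 progenitors to control. Of all tested genes, 21.2% rose and 21.2% fell there. Msgn1, a presomitic mesoderm factor, had 0 counts in every library. Meox1, a somite factor, had a log2 fold change of -2.76 (SE 0.41), and Dll3, a Notch ligand also made by young neurons, had 1.40 (SE 0.25). Over all tested genes, 0.363% rose and 0.224% fell against control in iHoxc6, and 1.03% and 1.09% in iHoxc8. These shares were 6.95% and 7.13% in iHoxc9, and 6.67% and 7.75% in iHoxc10. In iHoxc6 and iHoxc8 no gene of the paraxial mesoderm list passed against control. In iHoxc9 and in iHoxc10 it was Lfng, a modifier of Notch signaling, that fell, by 0.90 and 0.79 on the log2 scale; in iHoxc10 the call was lost without the second control library or the first or second iHoxc10 library.

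Nr6a1 (chr2:38723369-38926461), the trunk nuclear receptor, was highest in day 2 progenitors and lower in all 5 day 4 groups. It had 225, 213 and 255 CPM in day 2 progenitors and 58.6, 76.6 and 81.1 CPM in control neurons. The iHoxc6 libraries had 52.8, 44.1 and 57.3 CPM, those of iHoxc8 51.5, 40.3 and 60.8 CPM, those of iHoxc9 43.2, 38.1 and 38.5 CPM, and those of iHoxc10 63.1, 52.4 and 62.9 CPM. Every day 2 library lay above every day 4 library. The log2 fold change against day 2 progenitors was -1.68 (SE 0.16, adjusted p = 7.43e-09 by edgeR) in control, where the level was 3.21-fold lower. The value for iHoxc6 was -2.17, that for iHoxc8 -2.18, that for iHoxc9 -2.53 and that for iHoxc10 -1.96, with SEs of 0.16 to 0.17. The span of the Nr6a1 locus also overlaps Nr6a1os, Mir181a-2 and Mir181b-2 in the RefSeq annotation, so its reads there are uncertain. Its exons in the GENCODE annotation overlap those of no other gene.

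Gdf11 (chr10:128880524-128891718), the tail transition ligand, went the other way. It had 18.5, 22.3 and 13.9 CPM in day 2 progenitors and 60.5, 77.7 and 83.4 CPM in control neurons. The iHoxc6 libraries had 65.3, 59.6 and 73.5 CPM, those of iHoxc8 68.4, 53.4 and 81.1 CPM, those of iHoxc9 129, 109 and 124 CPM, and those of iHoxc10 88.7, 79.5 and 99.1 CPM. No day 2 library reached any day 4 library. The log2 fold change against day 2 progenitors was 2.02 (SE 0.18, adjusted p = 2.65e-09 by edgeR) in control, a 4.05-fold higher level. The value for iHoxc6 was 1.86, that for iHoxc8 1.89, that for iHoxc9 2.73 and that for iHoxc10 2.29, each with an SE of 0.18.

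These changes were read against a background in which many genes differed between the stages. In control against day 2 progenitors, 1 of 6 tested members rose and 1 fell, where 21.2% of all tested genes rose and 21.2% fell. In iHoxc6 2 rose and 1 fell (22.7% and 23.9% of all genes), in iHoxc8 2 rose and 1 fell (22.3% and 22.3%), in iHoxc9 1 rose and 1 fell (23.4% and 23.3%), and in iHoxc10 1 rose and 1 fell (24.1% and 26.1%). A change of this kind was common among all genes. All 5 comparisons share the day 2 libraries, and the line and the run differ along with the day. All 10 neuron markers rose in each of the 5 comparisons, with summed levels of 290 to 587 CPM in day 2 libraries and 5340 to 7500 CPM in day 4 libraries, and whether this has a part in the change of Nr6a1 and Gdf11 was not tested. Without the third day 2 library the fall of Nr6a1 was still -1.60 and the rise of Gdf11 1.86 in control, both past the threshold.

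**Figure D3:**
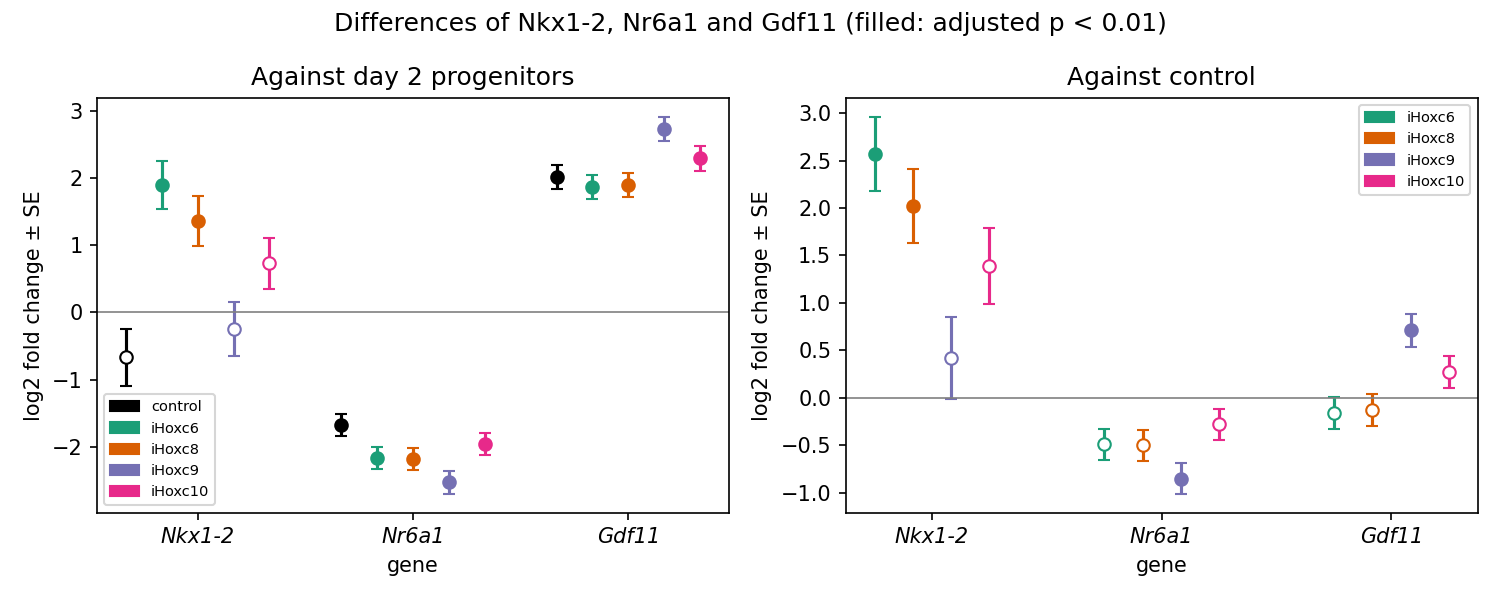
Log2 fold change (y axis) of Nkx1-2, Nr6a1 and Gdf11 (x axis) in each group, given by color, against day 2 progenitors (left) and against control (right), with the SE of the edgeR fit as bars and filled points for an adjusted p under 0.01. Nr6a1 is below 0 and Gdf11 above 0 in all 5 groups against day 2 progenitors, and against control both pass in iHoxc9 (-0.85 and 0.71) and in no other line.

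Among the iHox lines, iHoxc9 alone passed against control for these genes. Nr6a1 fell by 0.85 on the log2 scale (SE 0.16, adjusted p = 0.000419 by edgeR), from 72.1 ± 11.9 CPM in control to 39.9 ± 2.85 CPM (SD, n = 3 each), without overlap, and passed under all 13 alternatives. Gdf11 rose by 0.71 (SE 0.17, adjusted p = 0.0042 by edgeR), from 73.9 ± 11.9 to 121 ± 10.2 CPM, also without overlap. The rise of Gdf11 failed the threshold without the first control library (0.59, adjusted p = 0.033 by edgeR), the first iHoxc9 library (0.66, 0.022) or the third iHoxc9 library (0.64, 0.0191). In iHoxc9 against control, 6.95% of all tested genes rose and 7.13% fell. These groups differ in line, run, Dox and Hox gene.

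In the other lines the differences from control were smaller and did not pass. For Nr6a1 they were -0.49 (SE 0.16, adjusted p = 0.0822 by edgeR) in iHoxc6, -0.50 (SE 0.16, 0.0502) in iHoxc8 and -0.28 (SE 0.16, 0.223) in iHoxc10. For Gdf11 they were -0.16, -0.13 and 0.27, each with an SE of 0.17. In iHoxc10 none of the 6 tested members passed against control by edgeR, where 6.67% of all genes rose and 7.75% fell, and 1 had an unadjusted p under 0.05. A p that misses the threshold does not show that the levels were equal.

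iHoxc9 and iHoxc10 neurons were sequenced in the same run, which allows their comparison within it. The log2 fold change of Nr6a1 between them, iHoxc9 against iHoxc10, was -0.58 (SE 0.16, adjusted p = 0.022 by edgeR), and the libraries did not overlap (38.1 to 43.2 against 52.4 to 63.1 CPM). Gdf11 had 0.44 (SE 0.17, adjusted p = 0.136), also without overlap (109 to 129 against 79.5 to 99.1 CPM). Nkx1-2 had -0.98 (SE 0.39, adjusted p = 0.145), again without overlap. None of the 6 tested genes passed by edgeR at 0.01, in a comparison where 2.60% of all genes were higher in iHoxc9 and 2.40% lower, and 3 had an unadjusted p under 0.05. In a fit of these groups alone, Nr6a1 (-0.61, adjusted p = 0.000299) and Gdf11 (0.40, adjusted p = 0.00823) passed by edgeR, and by DESeq2's Wald test Nr6a1 passed (-0.62, adjusted p = 0.00243). Between lines of different runs, Gdf11 was lower in iHoxc6 than in iHoxc9 (-0.87, SE 0.17, adjusted p = 0.000924 by edgeR) and lower in iHoxc8 than in iHoxc9 (-0.84, SE 0.17, adjusted p = 0.00199 by edgeR). Nr6a1 did not pass in iHoxc6 against iHoxc9 (0.37, SE 0.16, adjusted p = 0.105 by edgeR). It did not pass in iHoxc8 against iHoxc9 either (0.35, SE 0.16, adjusted p = 0.263 by edgeR).

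The order of Nr6a1 levels was day 2 progenitors, control, iHoxc10, iHoxc6, iHoxc8 and iHoxc9, and only the first neighbors, day 2 progenitors and control, differed in the test. The order of Gdf11 levels was iHoxc9, iHoxc10, control, iHoxc8, iHoxc6 and day 2 progenitors, and only the last neighbors, iHoxc6 and day 2 progenitors, differed. Divided by exon length, Nr6a1 was at 21.3 CPM per kilobase in day 2 progenitors and Gdf11 at 4.49, while in iHoxc9 neurons they were at 3.69 and 29.8 CPM per kilobase. Within groups, the library with the lowest Nr6a1 level was also the lowest in Gdf11 in 5 of 6 groups, all except day 2 progenitors: the first library in control and the second in each iHox line. In day 2 progenitors the lowest library was the second for Nr6a1 and the third for Gdf11.

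The genes with patterns most like Nr6a1 over the 18 libraries were Aen (r = 0.974), Lin28a (0.965) and Klhl21 (0.964). Over the 15 day 4 libraries they were Scml4 (0.923), Hic2 (0.888) and Afg3l2 (0.876). For Gdf11 they were Map3k13 (0.977), Galnt14 (0.974) and Slc22a15 (0.974) over 18 libraries, and Mmp28 (0.941), Lrp12 (0.929) and Pag1 (0.921) over the 15. Map3k13, for example, had 4.03 CPM in day 2 progenitors, 38.0 CPM in control and 104 CPM in iHoxc9 neurons. The 18 libraries fall into day 2 and day 4, so r over all of them includes the gap between the stages, and all r values are given without a test.

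Of the 17 trunk to tail timing genes, which include Nr6a1 and Gdf11, 3 rose and 7 fell from day 2 progenitors to control, with a median log2 fold change of -0.45 against 0.00 over all genes, of which 21.2% rose and 21.2% fell. Lin28a and Lin28b, RNA-binding proteins that block let-7 maturation and are active in the early trunk and tail bud, fell by 1.29 and 2.54 on the log2 scale. Hmga2, a chromatin protein and let-7 target, fell by 1.78, Sall4, a zinc finger factor of early progenitors, fell by 2.74, and Pou5f1, the pluripotency factor Oct4, had 0.438, 0.300 and 2.37 CPM in day 2 progenitors and 0 counts in control. Acvr1b, a type I receptor that transmits GDF11 signals, rose by 1.87 (SE 0.12, adjusted p = 1.52e-11 by edgeR), from 21.8 ± 2.20 to 79.6 ± 3.45 CPM (SD, n = 3 each). Isl1, which is also among the neuron markers, rose more, by 2.87 (SE 0.27). Fst, a follistatin, fell by 3.42 (SE 0.49), from a mean of 2.11 CPM in day 2 progenitors.

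**Figure D4:**
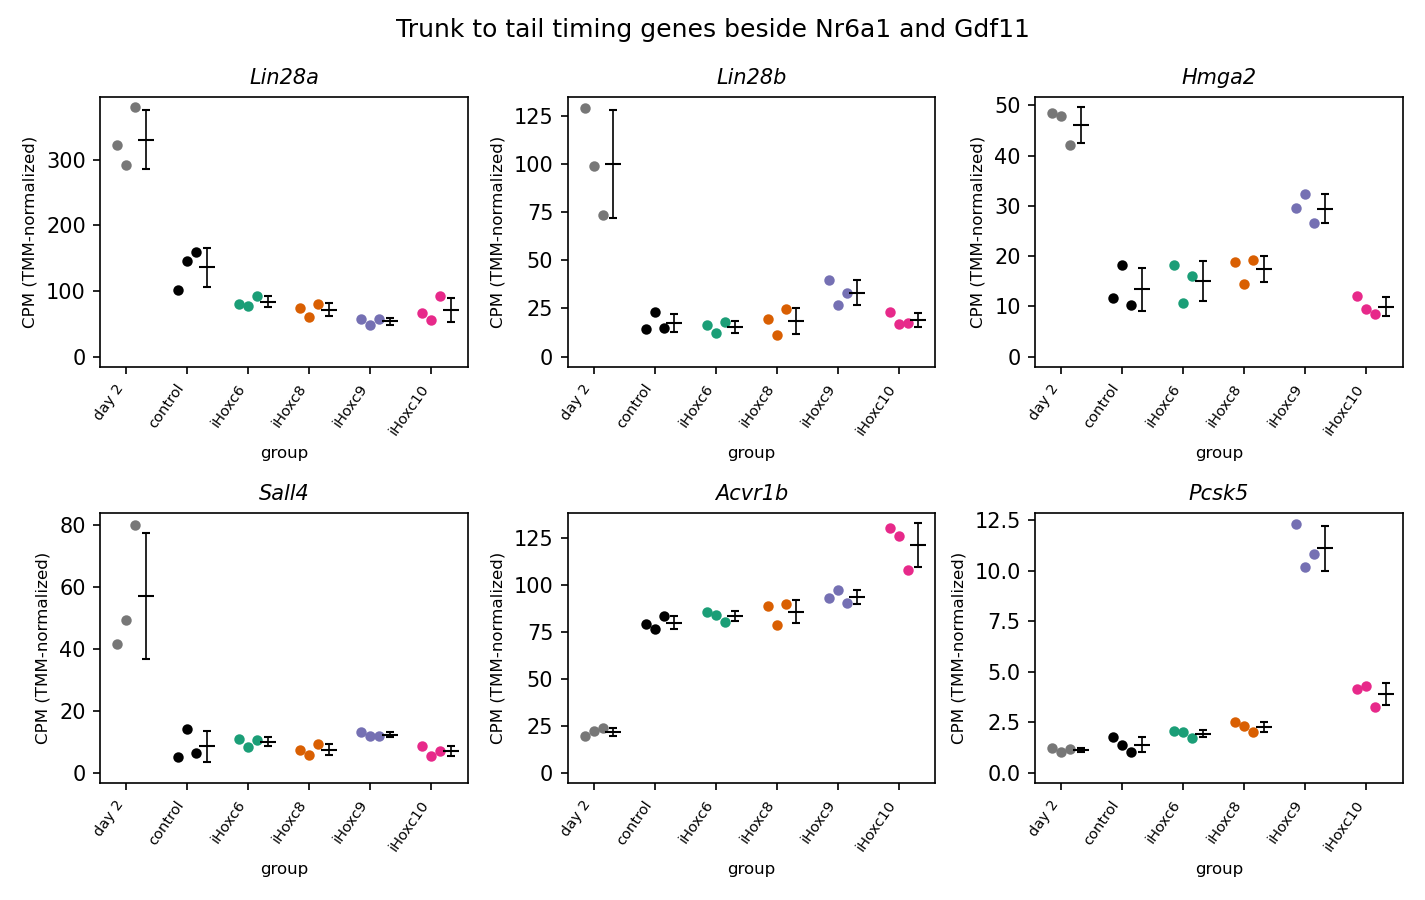
TMM-normalized CPM (y axis) of 6 timing genes in each of 18 libraries (points, with the mean and SD of 3 libraries as bars) by group (x axis). Lin28a, Lin28b, Hmga2 and Sall4 are highest and Acvr1b is lowest in day 2 progenitors, and Pcsk5 is highest in iHoxc9 neurons (mean 11.1 CPM).

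In iHoxc9 against control, 4 of the 17 timing genes rose and 2 fell, Nr6a1 and Gdf11 included, where 6.95% of all genes rose and 7.13% fell. Lin28a fell with Nr6a1, by 1.33 on the log2 scale (SE 0.18, adjusted p = 1.37e-05 by edgeR), from 102, 146 and 159 CPM in control to 56.6, 48.0 and 57.2 CPM. Pcsk5, the proprotein convertase that cleaves GDF11 into its active form, rose by 2.99 (SE 0.21, adjusted p = 7.39e-10 by edgeR), from 1.77, 1.39 and 1.01 CPM to 12.3, 10.2 and 10.8 CPM. Hmga2 rose by 1.13 (SE 0.21), and Lin28b rose by 0.93 (SE 0.26, adjusted p = 0.00978 by edgeR), a call that was lost under 8 of 13 alternatives, among them the omission of any iHoxc9 library. The genes that were highest in day 2 progenitors thus did not all change in the same direction in iHoxc9: Nr6a1 and Lin28a fell and Hmga2 and Lin28b rose.

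In iHoxc10 against control, 3 timing genes rose and 1 fell, against 6.67% and 7.75% of all genes. Pcsk5 had a log2 fold change of 1.48, Acvr2a, a type II receptor for GDF11, 0.84, Acvr1b 0.61 and Lin28a -0.92. The rise of Acvr2a was lost under 6 of 13 alternatives, among them the omission of control library 2 or 3 or of iHoxc10 library 1 or 2. That of Acvr1b was lost in the fit of these groups alone. In iHoxc6 none of the 17 passed, where 0.363% of all genes rose and 0.224% fell. In iHoxc8, where 1.03% rose and 1.09% fell, only Lin28a passed, with -0.92 (SE 0.18, adjusted p = 0.00433 by edgeR). That call was lost in the fit of these groups alone and without the third control library, the first iHoxc8 library or the second iHoxc8 library. Between iHoxc9 and iHoxc10, Hmga2 (1.56), Pcsk5 (1.51) and Fst, a follistatin that binds activins and GDF11 (3.42), were higher in iHoxc9, and Isl1 was lower (-1.27). Of all tested genes, 2.6% were higher in iHoxc9 and 2.4% lower. The call of Isl1 was lost without iHoxc9 library 2 or iHoxc10 library 1 and that of Fst, which was under 1 CPM in both lines, without iHoxc10 library 3.

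Of 19 tested genes of the caudal progenitor list, 1 rose and 6 fell from day 2 progenitors to control, with a median log2 fold change of -0.76 against 0.00 over all genes (21.2% rose and 21.2% fell). After Cyp26a1 (-4.22), these were Epha5, an ephrin receptor (3.21), Wnt5b (-0.95), Wnt5a (-0.92), Foxb1 (-0.91), Sox2 (-0.87) and Greb1 (-0.61). Against control, Nkx1-2 was the only one to change in iHoxc6, and in iHoxc8 it rose with Wnt5a (1.05) and Sox2 (0.72). The calls of Wnt5a and Sox2 were lost in the fit of these groups alone. They were also lost without control library 1 or 3 or iHoxc8 library 1 or 3. In iHoxc9 Cyp26a1 (4.48), Epha5 (1.25), Sox2 (1.10) and Wnt5a (1.07) rose and Wnt5b fell by 0.96, with Nkx1-2 not past the threshold. In iHoxc10 Sp5, a target of Wnt signaling, rose by 2.52, from 0.518 to 3.01 CPM, with Cyp26a1 (2.36) and Epha5 (1.56), while Foxb1 (-0.92) and Wnt5b (-0.79) fell. The call of Epha5 in iHoxc9 was lost without the third control library. That of Wnt5b in iHoxc10 was lost without the third control library or the first iHoxc10 library. Over all tested genes against control, 0.363% rose and 0.224% fell in iHoxc6, and 1.03% and 1.09% in iHoxc8. The same shares were 6.95% and 7.13% in iHoxc9, and 6.67% and 7.75% in iHoxc10.

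Set beside the Hox genes, the lines in which Nr6a1 and Gdf11 differed most from control were not those in which Nkx1-2 did. In iHoxc9 14 of 15 genes of paralog groups 1 to 5 fell against control (median log2 fold change -2.38), 3 of 8 central genes fell, Nr6a1 fell, Gdf11 rose and Nkx1-2 did not pass. In iHoxc6 none of the 15 anterior genes passed, 1 of 7 central genes fell, and of the 7 genes Nkx1-2 alone rose. In iHoxc10 1 anterior gene rose, 2 fell, 3 central genes rose and none of the 7 genes passed. In iHoxc8 1 anterior and 3 central genes fell and Nkx1-2 rose. Of all tested genes, 6.95% rose and 7.13% fell in iHoxc9, and 0.363% and 0.224% in iHoxc6. These shares were 6.67% and 7.75% in iHoxc10, and 1.03% and 1.09% in iHoxc8. The lack of a call among the anterior genes in iHoxc6 was thus near the share of all genes. In the same 4 lines Cdx1, Cdx2 and Cdx4 together had 0, 3, 0 and 0 counts in iHoxc6, iHoxc8, iHoxc9 and iHoxc10.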

How the data were processed

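RNA-seq was analysed in 18 libraries, 3 per group; the other assays of the study were not analysed here. Alignment by the authors was with STAR (2.7.0c) to mm10. They assigned reads to RefSeq genes by featureCounts (Rsubread 1.30.9) and deposited raw read counts per gene, with replicates, which their methods give as independent differentiations, kept apart. The strand setting is not given in the sources used here. Exons of Lin28a, Hmga2, Sall4, Pou5f1, Acvr2a, Fst, Wnt5a, Foxb1 and Greb1 overlap annotated antisense genes, so their reads are uncertain as well.

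Counts were fitted in R 4.3.3 with edgeR 4.0.16 (TMM factors, quasi-likelihood test), with the group as the only term and all libraries fitted at once. Tested were the 20944 genes that any iHox library held at 1 count or more. This filter kept 6 of the 7 genes and left out Cdx1. P-values were adjusted over all tested genes by the Benjamini-Hochberg method, and a gene passed at an adjusted p under 0.01. Levels are CPM, and the pseudocount on the log2 scale was 1. Alternatives were DESeq2 1.42.0, other size factors, filters and sets of libraries, a replicate block, each library left out in turn and, chosen after seeing the data, total-count scaling. Same-numbered libraries deviated together (r from 0.47 to 0.65 across genes) only in iHoxc9 and iHoxc10, and the block changed no call of the 7 genes there. On simulated counts of 20944 genes for iHoxc9 against control, edgeR recovered 76 of 100 genes altered by 1 on the log2 scale and 100 of 100 altered by 3. The altered genes were drawn only from genes above a minimum mean count in control, and the recovery was not split by expression level. It therefore does not give the rate for genes with low counts, including those among the 7 genes.

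The 7 genes were named throughout. From each list, up to 6 genes were named, those with the largest change among passing genes with a mean of at least 1 CPM, with Sox2, T, Lin28a, Lin28b, Pou5f1 and the central Hox genes named in any case. Fgf8, Msgn1, Fst, Isl1, Acvr2a, Greb1 and Hoxb9 were added after their values were seen. In control against day 2 progenitors, Fst and Isl1 also met the rule for the timing list. The genes and lists were chosen with earlier results of these data known. Coordinates and promoters are from GRCm38 annotation. Markers of endoderm (8 genes, of which 1 of 7 tested rose and 3 fell from day 2 to control) and pluripotency (6 genes, of which 3 fell) were also counted. So were posterior Hox genes (9 tested, of which 1 rose). In that comparison 21.2% of all tested genes rose and 21.2% fell.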

Additional observations from a re-analysis of the deposited data

Results flagged for a closer look

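In 4 cases the same gene differed between iHox lines in a direct test of the difference by edgeR. Nkx1-2 was higher in iHoxc6 than in iHoxc9 (log2 fold change 2.15, adjusted p = 0.000241) and higher in iHoxc8 than in iHoxc9 (1.61, adjusted p = 0.00618). Gdf11 was lower in iHoxc6 than in iHoxc9 (-0.87, adjusted p = 0.000924) and lower in iHoxc8 than in iHoxc9 (-0.84, adjusted p = 0.00199). Each pair was sequenced in different runs, so effects of run, line and induced Hox gene cannot be told apart. Groups of 3 libraries were not tested for outliers.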

How the results depend on the processing

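Of 390 alternative values of the members' log2 fold changes, 372 kept their direction and their side of the threshold, 10 lost the call, 6 gained it and 2 changed sign. The sign changes were those of Nkx1-2 in iHoxc9 against day 2 progenitors without the second day 2 library (0.12; -0.69 without the third) and of Gdf11 in iHoxc8 against control without the second iHoxc8 library (0.02; -0.32 without the third). With a log2 fold change beyond 2 required as well, 1 member passed in control, in iHoxc6, in iHoxc8 and in iHoxc10 against day 2 progenitors, and 0 in iHoxc9 against control. In fits of only the groups compared, 2 members passed in iHoxc8 against day 2 progenitors, 1 in iHoxc10 against control and 2 in iHoxc9 against iHoxc10; by DESeq2's Wald test 1 passed in each of the last pair. With a library left out, 2 to 3 members passed in control and in iHoxc8 against day 2 progenitors, 0 to 1 in iHoxc8 against control and 1 to 2 in iHoxc9 against control. The cause of these shifts was not tested. The replicate block changed no call of a member: with it, Nr6a1 in iHoxc9 against iHoxc10 was -0.57 (adjusted p = 0.0138 by edgeR) and Gdf11 0.44 (0.146). Outside that pair of lines, libraries share only a number. Other scalings shifted the median of all genes by less than 0.1 on the log2 scale. With a pseudocount of 0.1 CPM, 4 of the 6 sets of most similar genes changed. With at most 4 counts in any library, no fold is given for the Cdx genes, and the low counts of Nkx1-2 and Tbx6 leave wide errors.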

Other observations

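Posterior Hox genes, paralog groups 9 to 13, stayed low in the same libraries apart from the induced transgenes. Their summed level, without the line's own transgene, was 3.83 ± 0.437 CPM in day 2 progenitors, 9.43 ± 5.28 CPM in control, 1.46 ± 0.434 CPM in iHoxc9 and 9.43 ± 1.17 CPM in iHoxc10 (SD, n = 3 each), and 1 of the genes, Hoxb9, had a mean of at least 1 CPM in each group. Gdf11 was at its highest level in iHoxc9, the group in which this sum was lowest. Beside this, the summed level of neural progenitor markers was 542 to 595 CPM in iHoxc9 libraries and 320 to 659 CPM in control libraries, with 372 CPM in iHoxc9 and 237 CPM in control from Nes. Of the 8 progenitor markers 2 rose and 3 fell, and of 10 neuron markers 1 rose and 4 fell in iHoxc9 against control. In that comparison 6.95% of all tested genes rose and 7.13% fell. The part of cell composition in the levels of Nr6a1 and Gdf11 was not tested.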
